A study of Mus musculus with 17 samples.

Results

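Histone H3.3 was present in both compartments of the newborn mouse lens at 1829 stretches of the autosomes that lie away from the starts of protein-coding genes. They were found by merging the H3.3 islands of 4 libraries wherever at least 1 base was shared, which gave 38396 merged regions, and by keeping those on chromosomes 1 to 19 that had an island in all 4 libraries and held no start base of a GENCODE vM21 protein-coding gene (mm10). All coordinates below are mm10, 1-based. Of the 3839 autosomal regions with an island in all 4 libraries, 2010 held a gene start and 1829 did not. Among the 1829, 1426 (78.0%) overlapped the body of a protein-coding gene and 403 (22.03%) did not, and these are called the inside and the outside regions. Since the presence of an island in every library chose the regions, that presence is a description and was not tested.

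The study profiled H3.3 by chromatin immunoprecipitation and sequencing in microdissected lens epithelium and lens fibers of CD1 mice, given as P1 in the sample titles and P0.5 in the protocol, with 2 biological replicates of each compartment. By the labels each library was made from 150 pooled lenses (the study's methods give another number), 12 µg of chromatin and 5 µl of an anti-H3.3 antibody, and the labels name no transgene or treatment. Whole-genome bisulfite libraries and a pooled input of the same series were not analysed here.

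H3.3 differs from the canonical H3 proteins in being placed into chromatin throughout the cell cycle, so it marks sites where nucleosomes are replaced in cells that no longer divide. The HIRA complex deposits it at active genes and regulatory sequences, and ATRX with DAXX deposits it at repeated sequences. The lens suits the comparison because its epithelium is a dividing monolayer, while fibers have left the cell cycle, elongated and begun to lose their nuclei.

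To show what lay in the regions with many H3.3 reads per base, 5 stretches from them are printed. They are 2 RNA genes, a stretch with several copies, and 2 cores where no 75-base stretch recurs in the assembly. A factor motif follows, and all were read from the GRCm38 assembly. In the first 5, capitals mark CpG dinucleotides. The first is the middle 150 bases of the 18S ribosomal RNA gene copy Rn18s-rs5 at chr17:39847203-39847352, plus strand. The second is the middle 150 bases of a 4.5S RNA gene, Rn4.5s, at chr6:47654933-47655082, minus strand. The third, at chr8:15519846-15519920, occurs 9 times in the assembly and in 4 of the 1829 regions. The fourth, at chr5:146261001-146261200, lies in an intron of Cdk8, and the fifth, at chr2:22744801-22745000, lies outside genes. They come from the densest inside and outside regions without a repeated 75-base stretch. The fourth is the middle 200 bases of those shared by all 4 libraries in its region, and the fifth is all of them. The sixth, at chr5:118066988-118067039, is a match to the CTCF consensus, with the match in capitals.
18S rRNA gene copy: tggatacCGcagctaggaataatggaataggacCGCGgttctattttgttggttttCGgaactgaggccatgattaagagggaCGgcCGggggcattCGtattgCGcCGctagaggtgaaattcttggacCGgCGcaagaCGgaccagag
4.5S RNA gene: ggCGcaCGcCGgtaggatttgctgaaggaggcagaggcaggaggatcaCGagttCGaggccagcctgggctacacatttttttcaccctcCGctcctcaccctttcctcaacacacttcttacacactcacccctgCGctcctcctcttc
9-copy stretch: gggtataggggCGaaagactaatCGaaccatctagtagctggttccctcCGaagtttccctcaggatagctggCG
Cdk8 intron core: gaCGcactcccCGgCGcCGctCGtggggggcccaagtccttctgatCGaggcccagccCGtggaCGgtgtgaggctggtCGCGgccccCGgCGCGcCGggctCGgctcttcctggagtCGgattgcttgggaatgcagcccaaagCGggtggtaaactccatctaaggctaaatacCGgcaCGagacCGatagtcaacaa
chromosome 2 core: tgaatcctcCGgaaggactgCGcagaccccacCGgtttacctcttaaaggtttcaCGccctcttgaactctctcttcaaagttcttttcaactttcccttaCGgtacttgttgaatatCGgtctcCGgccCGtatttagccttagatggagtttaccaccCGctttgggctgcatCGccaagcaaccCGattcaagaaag
CTCF-type match: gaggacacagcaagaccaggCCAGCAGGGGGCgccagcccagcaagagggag

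The libraries differed in how much was called, and total sequencing depth is not given in the sources used here. The epithelium libraries held 10389 and 14434 islands with 1331369 and 1430373 reads, and the fiber libraries held 27059 and 35940 islands with 5041885 and 5359085 reads. The 1829 regions took 25.2% and 21.1% of the epithelium islands but 9.99% and 8.26% of the fiber islands. Of all autosomal protein-coding genes, 27.2% and 31.96% held an island in the epithelium libraries and 53.5% and 59.5% in the fiber libraries, so a larger count in fibers holds for genes in general. An island on a gene is not its expression. Against that background, 6, 6, 9 and 9 of 9 fiber marker genes held an island in epithelium 1, epithelium 2, fiber 1 and fiber 2. The same counts were 4, 5, 4 and 6 of 6 for lens epithelium, 1, 2, 2 and 2 of 4 for endothelium, 0, 0, 1 and 3 of 4 for pigment cells, 2, 2, 1 and 0 of 3 for retina, 1, 2, 2 and 2 of 4 for blood and macrophages, and 0, 0, 0 and 1 of 3 for cornea. The part of other cells or of depth in the results was not tested.

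The regions were broad. Their median length was 12000 bp, with a range from 800 to 152600 bp, and the median was 13200 bp inside and 8400 bp outside genes. Together they spanned 29.6 Mb. The weakest island that counted held 42, 28, 39 and 37 reads in epithelium 1, epithelium 2, fiber 1 and fiber 2. Just outside the rule stood 3078 startless regions with an island in exactly 3 libraries, of which 1817 lacked epithelium 1, 999 lacked epithelium 2, 174 lacked fiber 1 and 88 lacked fiber 2. Where epithelium 1 was the missing library, the median reads were 77 in epithelium 2, 165 in fiber 1 and 153 in fiber 2, against 117, 266 and 251 in the 1829 regions. A base covered in all 4 libraries existed in 1497 of the 1829 regions, and its extent there had a median of 2200 bp. In the other 332 regions no single base was covered in all 4 libraries.

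In most of the regions, fiber islands covered more of the length than epithelium islands did. The median covered length was 4600 and 4200 bp in the epithelium libraries and 9400 and 8600 bp in the fiber libraries, and neither fiber value overlapped an epithelium value. Fiber islands covered 83.3% and 78.3% of the summed region length, and epithelium islands 40.1% and 37.2%. The fiber to epithelium ratio of total covered length was 2.09 ± 0.117 (SD over the 4 pairs of a fiber with an epithelium library, 2 libraries per compartment), with an exact two-sided permutation p of 0.333, the smallest that 2 libraries against 2 allow. The ratio was 2.19 ± 0.117 inside genes, 1.60 ± 0.111 outside genes and 2.01 ± 0.0879 in the regions at gene starts. The ratio of total reads was 2.11 ± 0.103. As a share of each library's reads in islands, the same reads were 27.3% and 23.7% in epithelium and 15.1% and 13.5% in fibers, a ratio of 0.561, so the direction turns with the scaling. As deposited, the median density, in reads per kb covered, gave a ratio of 1.03 ± 0.0119 (exact permutation p = 0.333), from medians of 28.4 and 28.4 reads per kb in epithelium and 28.9 and 29.5 in fibers. Divided by each library's total of reads in islands, the density ratio turned to 0.272, so its direction too depends on a scale that the files do not fix.

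**Figure D1:**
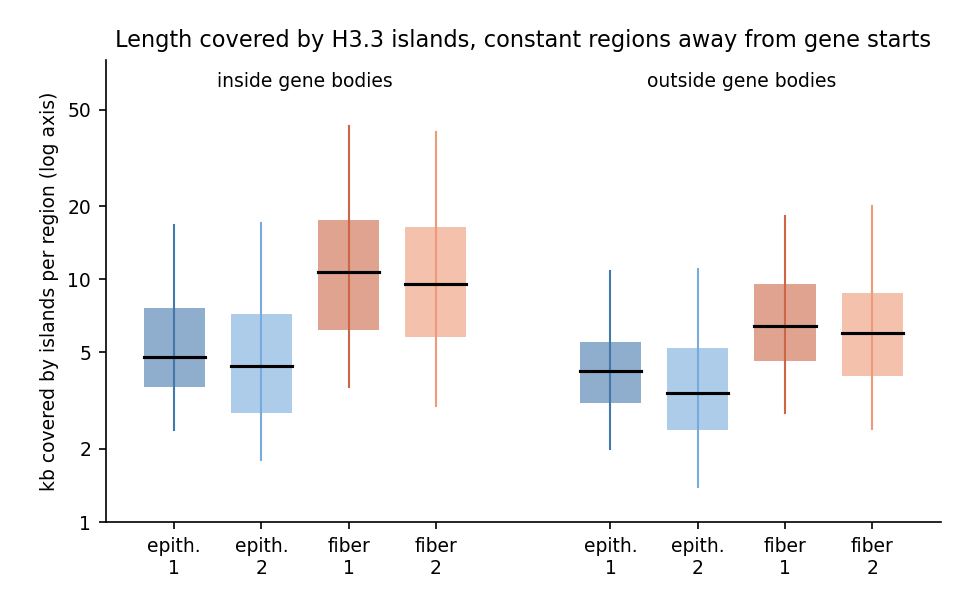
Length covered by H3.3 islands in each region, in kb on a log axis, for the 1426 inside and 403 outside regions in each of the 4 libraries (epith., epithelium). Boxes span the quartiles, black lines are medians and thin lines run from the 5th to the 95th percentile of regions; the fiber medians of 10700 and 9600 bp inside genes stand above the epithelium medians of 4800 and 4400 bp, and the gap is smaller outside genes.

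Region by region, both fiber libraries covered more bases than both epithelium libraries in 1246 of the 1829 regions (68.1%), against 72.7% of all 3839 regions with an island in every library, which is the background. The share was 71.2% inside and 57.1% outside genes. The opposite order held in 44 regions (2.41%), against a background of 1.77%. By reads, fibers were above in 1319 regions (72.1%, background 77.2%) and epithelium in 60 (3.28%, background 1.98%). The shares of all 1829 with fibers above thus lay somewhat below the background, and that of the outside regions further below it. The background includes the 1829 themselves. In the regions at gene starts alone, fibers were above in 76.8% by bases and 81.7% by reads, and epithelium in 1.19% and 0.796%.

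The density of islands, ranked within each library as the percent of its islands with fewer reads per kb, sets no read total of one library against another, though it depends on how many islands each library has. Islands in the 1829 regions had a median percentile of 52.9 and 54.5 in epithelium and 63.2 and 63.6 in fibers, and islands in the constant regions at gene starts had 61.6, 61.5, 70.8 and 70.0. The regions away from starts were lower in 4 of 4 libraries, with differences of -8.71, -7.03, -7.63 and -6.32 percentile points (mean -7.42 ± 1.01 SD, exact two-sided sign-flip permutation p = 0.125, the smallest 4 libraries allow). For the outside regions the mean difference was -2.93 ± 2.67 points (exact sign-flip permutation p = 0.25), with epithelium 2 at 0.589 points above the regions at starts. By region, the mean percentile was higher in both fiber than in both epithelium libraries in 630 of the 1829 regions (34.4%, background 35.7%) and lower in 243 (13.3%, background 11.9%). When islands below their library's median density were left out before merging, 598 regions were left, and their difference was -0.972 points. Percentiles were still ranked among all islands there, so only the upper part of the scale was in use. That narrows the possible difference, and the value is not on a par with -7.42.

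Among the highest densities, the region of an 18S ribosomal RNA gene copy stood far above the rest. The region chr17:39842401-39849000, outside protein-coding genes, holds the 18S copy printed above, and RNA of that gene forms the core of the small ribosomal subunit. It had 6759 and 7289 reads in epithelium and 7287 and 6922 in fibers, a mean of 1122 reads per kb, and the compartments overlapped. Its values lay at or above the 99.9 percentile of islands in each library. The 4.5S array at chr6:47645601-47687000, whose genes make a short RNA found in mouse and related rodents, had 3790 and 3744 reads in epithelium and 3790 and 3844 in fibers, a ratio of 1.01. A neighbour at chr6:47737001-47773200 that shares 3907 stretches of 31 bases with it had 3073, 2982, 3184 and 3108 reads. The longest of the 1829 regions, chr6:114485801-114638400, holds no annotated gene and is 79.3% repeated sequence. It had 9438 and 9323 reads in epithelium and 11008 and 10498 in fibers, with 139800 bp covered in all 4 libraries.

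Repeated here means that a 75-base stretch, the length of the reads, occurs more than once in the assembly. A read from such a stretch has no single place of origin. Copies absent from the assembly are not counted, and the 18S region had only 5.39% of its stretches repeated. The median region had 0.435% of its stretches repeated, and 42 regions (15 inside, 27 outside) had at least 20%. A threshold of 50 reads per kb, chosen after the values were seen, picked out 32 regions, 13 inside and 19 outside genes, of which 25 had at least 5% of their stretches repeated. These 32 held 32103 and 32255 reads in epithelium and 34564 and 33448 in fibers. The other 1797 regions held 331554 and 306828 reads in epithelium and 725327 and 691751 in fibers. Per region, the median fiber to epithelium ratio of reads was 1.02 in the 32 dense regions and 1.88 in the rest, and both fiber libraries were above both epithelium libraries in 5 of 32 (15.6%) against 1314 of 1797 (73.1%). As deposited, the dense regions thus gave near-equal reads in all 4 libraries, and the remaining regions about double in fibers. As a share of each library's reads in islands, both groups were lower in fibers, with 2.41% and 2.26% in epithelium against 0.686% and 0.624% in fibers for the dense regions (ratio 0.281) and a ratio of 0.589 for the rest. The dense regions had the lower ratio on both scales. Each library's total divides both groups alike, so the second scale is no separate check of that order.

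**Figure D2:**
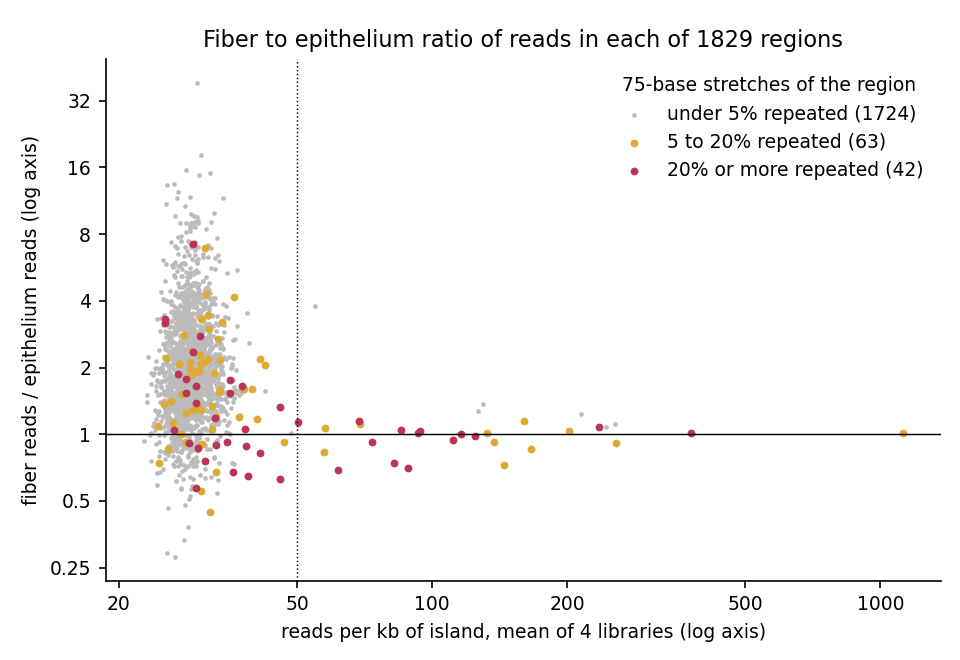
Each point is 1 of the 1829 regions, placed by its reads per kb of island, the mean of 4 libraries (horizontal, log axis), and by the ratio of fiber to epithelium reads (vertical, log axis), and coloured by the share of its 75-base stretches that are repeated. The solid line marks a ratio of 1 and the dotted line 50 reads per kb; the 32 points right of the dotted line have ratios from 0.69 to 3.8 with a median of 1.02.

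When regions were grouped by repeated sequence, the 2 most repeated groups had the lowest ratios. The 32 dense regions were kept in these groups, 25 of them with at least 5% repeated, so the grouping is no separate check. The median ratio of reads was 1.86 in the 1274 regions with under 1% repeated, 2.05 in the 450 with 1 to 5%, 1.36 in the 63 with 5 to 20% and 1.04 in the 42 with at least 20%, of which 13 still had more reads in both fiber libraries. The share outside genes rose from 20.3% in the first group to 64.3% in the last. Without the 42 most repeated regions, the fiber to epithelium ratio of total covered length was 2.13 for the rest and 1.71 for the outside regions alone. The gap between inside and outside regions was therefore still present without them, at 2.21 against 1.71. How the copy number of a repeat or the placing of its reads bears on these counts was not tested.

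**Figure D3:**
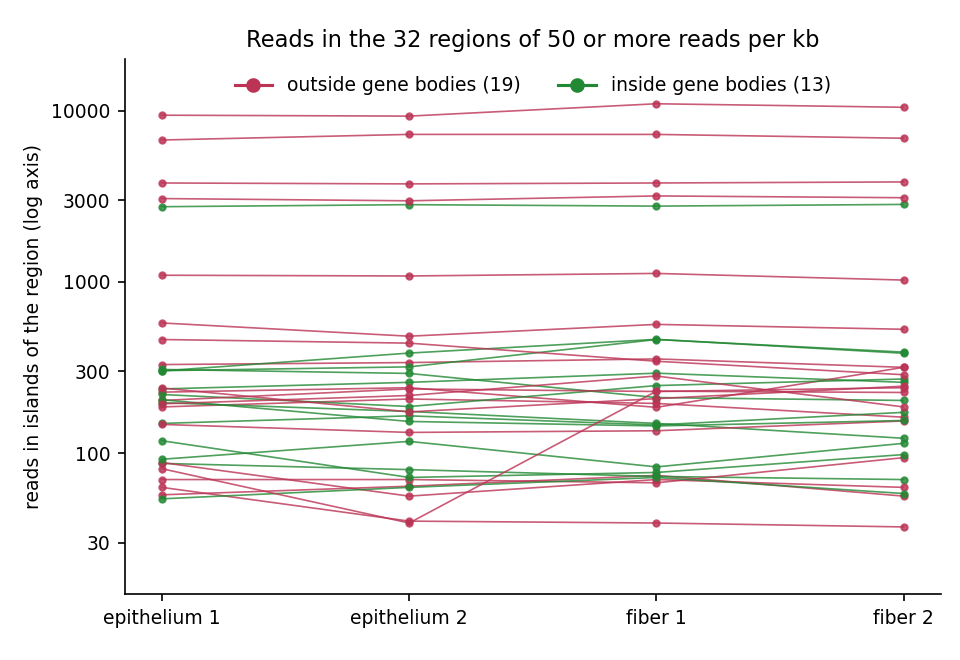
Reads in the islands of each of the 32 regions with at least 50 reads per kb (log axis) in the 4 libraries, 1 line per region, green for the 13 inside and red for the 19 outside gene bodies. Lines run nearly level, and the one that climbs most, chr9:123923201-123929000, had 81 and 39 reads in epithelium and 230 and 226 in fibers.

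Dense regions also shared sequence with each other. Of the 32, 17 shared at least 31 stretches of 31 bases with another of them. The 9-copy stretch printed above lay in chr8:15519401-15520600, chr14:104714401-104716200, chr16:57390801-57401400 and chr2:20898801-20900400. The stretch was not matched to a named RNA gene, and whether it is ribosomal RNA sequence was not tested. The chromosome 8 region, 462 kb from the nearest protein-coding start and without an annotated gene, had 186 and 207 reads in epithelium and 195 and 162 in fibers. The chromosome 16 region lies in Cmss1 and Filip1l and had 303, 319, 461 and 389 reads. The chromosome 2 region, in Arhgap21, had 92, 117, 83 and 114 reads. Only the region in Cmss1 and Filip1l had more reads in both fiber libraries among these 3.

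A pair of dense regions had no 75-base stretch that recurs in the assembly. The inside region chr5:146260001-146263200 lies in Cdk8, the gene of a kinase of the Mediator complex, and had 237 and 259 reads in epithelium and 293 and 259 in fibers. The outside region chr2:22744801-22745600 had 57 and 64 reads in epithelium and 74 and 56 in fibers. The bases covered in all 4 libraries spanned 600 and 200 bp. The stretches printed above from these bases hold 20 and 11 CpG dinucleotides. They resemble each other on opposite strands, with 44 bases in an exact match and 56 shared stretches of 16 bases between the regions. Neither counts as a repeat at 75 bases, but that does not show their sequence to be unique. The cores were not matched to a named RNA gene, as no full set of ribosomal RNA sequences was among the sources used here. Whether they are copies of ribosomal RNA sequence, and where their reads came from, was not tested. The reads are therefore no evidence of H3.3 at these places in particular. Tandem coding repeats were among the dense regions too. Eppk1, which encodes the plakin epiplakin, held chr15:76102401-76107200 with 308, 292, 211 and 203 reads, so that both epithelium libraries were higher. Muc6, a gel-forming mucin gene, held chr7:141636201-141641200 with 205, 153, 144 and 155 reads, where the compartments overlapped.

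A long noncoding RNA gene lay in the outside region that, after 3 repeat-rich ones, had the most bases covered in all 4 libraries. Malat1, a nuclear noncoding RNA, lies in chr19:5785201-5821000, where epithelium had 736 and 878 reads, fibers had 1227 and 1254, and 19600 bp were covered in all 4 libraries. Both fiber libraries were higher there, by a ratio of 1.54. The start of a long noncoding RNA gene lay in 90 of the 403 outside regions (22.3%), against 6.87% of 2226 outside regions found in both fiber libraries and in neither epithelium library. Because constant regions were longer, the starts are better compared per length, and there were 25.3 per Mb in the constant and 12.8 per Mb in the fiber-only outside regions. Counted by region and without regard to length, a small RNA gene overlapped 27 outside regions (6.70%, against 1.84%). No annotated gene of any type overlapped 229 of the 403.

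The outside regions with the largest fiber excess included transfer RNA gene clusters. Region chr3:96326601-96351800, with several transfer RNA genes and a small nuclear RNA gene, was covered over 3600 and 3200 bp in epithelium and 22600 and 24200 bp in fibers, a ratio of 6.88. Of its 75-base stretches, 30.9% were repeated. Region chr2:122374601-122381800, with transfer RNA genes for histidine, was covered over 1600 and 1000 bp in epithelium and 7200 and 5600 bp in fibers, a ratio of 4.92. In the opposite direction by covered length, chr9:66930801-66938600 was covered over 6800 and 5000 bp in epithelium and 2800 and 2600 bp in fibers, a ratio of 0.458. Its islands were denser in fibers, though, at 45.0 and 43.5 reads per kb against 26.8 and 27.8 in epithelium. Their percentiles within the library were 99.4 and 98.9 against 30.7 and 49.4. Covered lengths of the compartments did not overlap in these 3 regions. The outside regions reached far from genes. Their median distance to the nearest protein-coding start was 36.5 kb, 70 lay beyond 100 kb, and the most distant, at the noncoding gene Redrum on chr18:54449601-54456400, lay 536 kb away with 124, 113, 184 and 123 reads.

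Inside genes, the regions leaned toward the gene's end. For the 1371 region midpoints that fell within a gene (the shortest where several overlapped), the share in successive deciles of gene length climbed from 2.92% in the first to 16.1% in the last, with 13.9% and 13.6% in the eighth and ninth. For 6297 midpoints of the fiber-only inside regions, the share was 5.54% in the first decile and 11.5% in the last, with little slope between. The rule that removed gene starts lowers the first deciles of both. The constant inside regions were also longer, with a median of 13200 bp against 6200 bp. The part of region length in these positions was not tested. A protein-coding gene end lay in 463 of the 1426 inside regions (32.5%), at 24.4 gene ends per Mb, against 17.4 per Mb in the fiber-only regions. An additional transcript start of a protein-coding gene lay in 634 inside regions (44.5%), at 74.0 transcript starts per Mb against 58.1 per Mb in the fiber-only regions. Counted as regions that hold at least 1 such start, the order was opposite, with 24.9 per Mb against 28.4. By these counts, part of the inside regions are away from the first start only. Exons made up 10.8% of the inside bases, 8.96% of the fiber-only inside bases and 3.76% of chromosomes 1 to 19. With the start of every transcript of a protein-coding gene removed, 1195 regions remained.

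**Figure D4:**
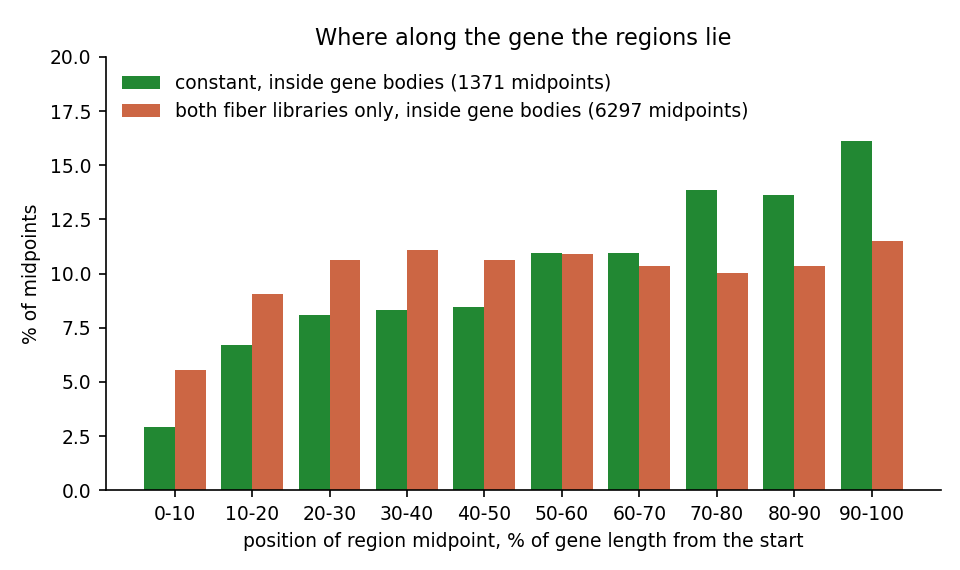
Share of region midpoints (vertical, %) in each decile of gene length from its start (left) to its end (right), for 1371 midpoints of constant inside regions (green) and 6297 midpoints of inside regions found in the fiber libraries only (orange). The green bars climb from 2.92% to 16.1%, and the orange bars stay near 10% after the first deciles.

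The inside regions touched 1183 of 20807 autosomal protein-coding genes (5.69%), and 245 of these held at least 2. Host genes were long, with a median of 49.6 kb against 17.6 kb for all genes. The largest counts came from very long gene models. Gm20388, a GENCODE model of 4434882 bp that spans many other genes, held 40 regions and none by RefSeq's annotation, and the GENCODE model of Fgfr2, 2960900 bp long, held 16 where RefSeq's held 2. Both inflate the inside class slightly, and without them 76.9% of the 1829 regions were inside genes. Next came Prdm16, a zinc finger regulator, with 9 regions, Ttc28 with 9 and Zmiz1, a transcriptional coregulator, with 8. Gse1, Msi2 and Rbfox3 held 7 each, and Btbd9 and the cadherin gene Cdh4 held 6 each. Msi2 encodes an RNA-binding protein, and its 7 regions made up 96.1% of the gene. That share counts bases covered in any of the 4 libraries, not bases covered in all of them.

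Some inside regions were covered almost end to end in fibers and only at short pieces in epithelium. Prkag2, a regulatory subunit gene of AMP-activated protein kinase, held chr5:24989001-25076000, covered over 3200 and 1800 bp in epithelium and 80000 and 84200 bp in fibers, a ratio of 32.8, with no base shared by all 4 libraries. Ank2, which encodes an ankyrin that ties membrane proteins to the cytoskeleton of lens fibers, held chr3:127285601-127360000, covered over 5600 and 3400 bp in epithelium and 68000 and 65400 bp in fibers. Etl4 had 4000 and 5800 bp in epithelium and 74200 and 70200 bp in fibers at chr2:20514801-20596600. Aak1, a kinase gene of endocytosis, had 3400 and 2600 bp in epithelium and 38200 and 38000 bp in fibers at chr6:86882201-86925600. The fiber and epithelium libraries did not overlap in any of these 4. They were named for having the largest ratios, so the ratios are descriptions.

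At the other end, epithelium covered more than fibers. Dnah8, an axonemal dynein gene, and the neighbouring Glp1r, the receptor gene of glucagon-like peptide 1, held adjacent regions on chromosome 17. At chr17:30870401-30894600 epithelium was covered over 19600 and 16000 bp and fibers over 4000 and 8200 bp, and at chr17:30905001-30925000 epithelium over 12800 and 18000 bp and fibers over 4400 and 6800 bp. Rap1gap2, a Rap1 GTPase-activating protein gene, had 10400 and 10400 bp in epithelium and 4400 and 2800 bp in fibers at its end (chr11:74377801-74389400). The collagen gene Col16a1 had 9200 and 7400 bp against 3200 and 2800 bp at chr4:130071801-130083600, and Chn2, a Rac GTPase-activating protein gene, had 7800 and 5800 bp against 3200 and 2600 bp at chr6:54156401-54165000. All 5 ratios lay between 0.343 and 0.426, with both epithelium libraries above both fiber libraries.

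Among inside regions, long stretches covered in all 4 libraries lay in Ski with Morn1 (43200 bp), Man1c1 (41800 bp), Casz1 (40400 bp) and Crim1 (37200 bp). Ski encodes a corepressor of TGF-β signalling, Man1c1 a Golgi mannosidase, Casz1 a zinc finger transcription factor and Crim1 a membrane protein that binds bone morphogenetic proteins. At Crim1, chr17:78248401-78385200, reads were 1763 and 2143 in epithelium and 5303 and 5363 in fibers. At Ski and Morn1, chr4:155113601-155222400, 0.192 kb from the start of Ski, they were 2321 and 1618 in epithelium and 3540 and 3582 in fibers. Both fiber libraries were above both epithelium libraries at each.

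Of the gene groups looked up for the lens, the crystallins, which make up most fiber protein, held no constant region away from a start (0 of 16), against 5.69% of all protein-coding genes. The starts of 9 of the 16 lay in constant regions, against 15.04% of all genes. Beside the same 5.69%, 3 of 17 fiber structure genes held one: Ank2, Bfsp2, which encodes the beaded filament protein phakinin, and Tmod1, which encodes an actin pointed-end cap. Bfsp2 at chr9:103411001-103453800 had 177 and 301 reads in epithelium and 1453 and 1371 in fibers. Tmod1 at chr4:46112401-46128400 had 74 and 73 reads in epithelium and 449 and 441 in fibers. The fiber libraries were higher in both genes.

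Lens regulators held one in 6 of 24 genes (against 5.69% of all genes): Fgfr1, Fgfr2, Meis1, Notch2, Six3 and Tfap2a. Fgfr1, a receptor of fibroblast growth factors, which drive fiber differentiation, had 104 and 305 reads in epithelium and 1574 and 1452 in fibers at chr8:25530801-25590800. That region held 13 transcript starts of protein-coding genes. At the end of the long GENCODE model of Fgfr2, chr7:130157401-130254800, there were 678 and 522 reads in epithelium and 2824 and 2819 in fibers. This Fgfr2 region held 7 transcript starts of protein-coding genes and touched a constant region that held 19. Notch2, a Notch receptor gene, had 84, 123, 552 and 594 reads at chr3:98022801-98048400. Six3, a homeodomain factor gene needed for lens formation, had 227, 546, 814 and 751 reads at chr17:85614001-85638000, 0.393 kb from its start. Fiber reads were above epithelium reads in these 4. Tfap2a, an epithelial transcription factor gene, had 58, 85, 81 and 95 reads at chr13:40730601-40736400, where the compartments overlapped. The Tfap2a region held 5 transcript starts of protein-coding genes.

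Against 5.69% of all genes, actin and adhesion genes held one in 4 of 17 cases (23.5%), namely Actn4, Cdh1, Ctnnb1 and Myh10, and capsule and matrix genes in 1 of 10, the laminin gene Lamb1. Cdh1, which encodes E-cadherin of the epithelium, had 180 and 325 reads in epithelium and 696 and 760 in fibers at chr8:106615201-106645200. Lamb1 had 135 and 219 reads in epithelium and 1445 and 1567 in fibers at chr12:31283201-31336400. The fiber libraries were higher at this epithelial gene as at the matrix gene. Imprinted genes gave 1 of 13 (Kcnq1), and genes named as zinc finger proteins 16 of 459 (3.49%), against 5.69% of all genes.

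H3.3 is encoded by H3f3a and H3f3b, and a region at the end of H3f3b itself (chr11:116016201-116027000) was among those higher in epithelium. That region lay 0.962 kb from the gene's own start and held 3 transcript starts of protein-coding genes. Epithelium covered 10600 and 7800 bp there with 371 and 278 reads, and fibers 7000 and 7400 bp with 225 and 214 reads. The epithelium libraries were above the fiber libraries on both measures, by a ratio of 0.783 of covered length. Cabin1, a subunit gene of the HIRA deposition complex, held 2 regions, with 104, 99, 286 and 294 reads at chr10:75661401-75673200 and 211, 112, 162 and 259 reads at chr10:75701601-75710400. Fibers were higher at the first and overlapped epithelium at the second. Thus 2 of the 6 listed genes of H3.3 and its chaperones held a constant region away from a start, against 5.69% of all genes. Host genes were long, and the part of gene length in the counts of these lists was not tested.

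The GC content of the inside regions was lower where their fiber to epithelium ratio was higher. The median GC content was 50.3% in the 1829 regions, 51.3% in constant regions at gene starts, and 45.4% and 46.7% in the fiber-only regions inside and outside genes, against 41.9% for chromosomes 1 to 19. Inside genes the median GC was 52.2% in the 127 regions with a covered-length ratio under 1, 51.3% in 624 with a ratio from 1 to 2, 49.5% in 509 from 2 to 4 and 47.1% in 166 of 4 or more. Region length rose along the same inside groups, from 8600 through 10800 and 15600 to 24200 bp. Outside genes the median GC in these ratio groups was 50.6%, 50.02%, 50.01% and 47.7%, with 14 regions in the last. The CpG observed over expected was lower away from starts, at 0.229 inside and 0.223 outside genes against 0.313 in the constant regions at starts. Composition, length and the number of calls in a library move together here, and their part in the ratio was not tested.

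Sequence motifs were searched on both strands in 600 bases around the middle of the longest stretch covered in all 4 libraries, or of the region where there was none. The CTCF consensus, recognised by the insulator protein CTCF, was in 22 of the 1829 windows (1.20%), against 0.990% of all 3839 regions with an island in every library, 0.653% of all autosomal regions and 0.299% of all 600-base windows of chromosomes 1 to 19. The match printed above lies in chr5:118062001-118141200. For the other motifs the shares stayed close to those of all regions, although 4 exceeded the share of all windows, which was 0.489% for ETS, 5.90% for the E-box, 8.10% for the Maf half-site and 29.4% for TEAD. TGANTCA (AP-1) was in 15.3% against 16.4% of all regions, TGCTGAC (a Maf half-site) in 12.4% against 11.7%, ACAAAG (Sox) in 38.7% against 41.6%, ACCGGAAG (ETS) in 1.04% against 1.08%, GGAATG (TEAD) in 32.04% against 28.9% and CACGTG (E-box) in 10.2% against 9.56%. A match of letters does not show that the factor binds there.

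Along the chromosomes, the regions were densest on chromosome 11, with 224 (1.83 per Mb), and sparsest on chromosome 3, with 39 (0.244 per Mb). The count per 100 protein-coding genes was 13.7 on chromosome 11 and 3.88 on chromosome 3. The median gap between neighbours among the 1829 was 131.6 kb. Within 5 kb of another region with an island in all 4 libraries lay 607 of them (33.2%), and 11 pairs of the 1829 touched without sharing a base.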

How the data were processed

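H3.3 ChIP-seq libraries of newborn lens epithelium and fibers, 2 of each, were analysed. The authors aligned 75-nt single-end reads to mm10 with BWA and ran SICER2 on every library by itself (200-bp windows, 600-bp gaps, false discovery rate 0.01). The deposited values are read counts per island, not normalized. Removal of duplicates and use of the input are not given in the sources used here, so counts were compared as ranks within libraries or as ratios with their spread.

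Islands were merged with Python 3.11.15, numpy 2.4.6, pandas 2.3.3 and numba 0.67.0, and annotated with GENCODE vM21 and RefSeq on GRCm38. The permutation tests were exact and two-sided, over the 4 libraries. Same-numbered replicates shared only a number. Covered length is set by the caller, so deeper libraries may reach more windows. The searches for repeated stretches and motifs were tested on simulated data. Regions named were, in each class, the 5 densest, the 5 longest by bases covered in all 4 libraries, the 5 highest and 5 lowest by ratio and the 5 farthest outside, a selection of which is given, and the 10 genes with most regions. The regions and gene lists were chosen with earlier results of these data known. Regions with 50 reads per kb and the examples among them were chosen after their values were seen. Some sequences and the results that rest on them are not reported here.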

Additional observations from a re-analysis of the deposited data

How the results depend on the processing

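The number of regions was 1829, and it was 1575 with islands within 1 kb merged, 598 with islands below the library median in density dropped, 1189 where each library had to cover at least 25% of a region, 1195 with every transcript start removed, and 2204 to 3759 with 1 library left out, highest without epithelium 1. The share inside genes was 77.4% to 79.6% without 1 library, 74.5% with the 25% rule, 66.3% with every transcript start removed and 54.3% where the whole region had to lie within 1 gene. The covered-length ratio stayed above 1 throughout, at 2.23 with the 1-kb merge, 2.45 with dense islands only, 1.61 with the 25% rule and 1.78 to 2.18 without 1 library. The median density ratio was 1.02 to 1.04 without 1 library, 1.01 as total reads over total length, and 0.272 on counts divided by library totals, the sole reversal. The percentile difference was -8.54 with the 1-kb merge and -9.39 to -7.83 without 1 library. It was -0.972 with dense islands only, where percentiles still ranked among all islands leave a narrower scale. The share with more bases covered in both fiber libraries was 73.6% with dense islands only, 58.9% with the 25% rule, 68.7% without the regions of at least 20% repeated stretches, 65.0% with every transcript start and 65.6% with the start of every gene of any type removed, and 70.6% to 79.0% without 1 library. With a replicate block, the ratios taken within replicate numbers averaged 2.09 for covered length and 1.03 for density. The causes were not tested. Settings on repeated sequence and on gene models were added after the data were seen.

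With 2 libraries per compartment the permutation tests had no power to reach 0.05, and the p-values describe these libraries only. Depth was unknown, so a region without an island in a library was not detectable there at that depth.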
